A study of Macaca mulatta with 8 samples.

Results

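Regions called at E60 and E80 alone were the largest class of open chromatin in cultured cortex cells of the rhesus macaque, and are called members here. A member is a stretch of the genome to which the authors assigned at least 1 peak from E60 and at least 1 from E80, and none from E50 or E85. There were 21251 members among 72358 regions with a peak of any stage, a share of 29.4% (exact 95% interval 29.0 to 29.7). The members were chosen by the peaks called at the 4 stages, so their presence at E60 and E80 is a description and no result.

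Chromatin was profiled by ATAC-seq, in which the Tn5 transposase cuts DNA that is not covered by nucleosomes. The cells were primary cortex cells of post-conceptional days 60 and 80 (E60 and E80), set against days 50 and 85 (E50 and E85). At each stage frozen cortex had been thawed, papain-treated and plated in a medium meant to enrich progenitors, with FGF2, EGF and BDNF, and no group carried another treatment. Each stage was 1 culture split into 2 technical libraries, which makes 8 in total; the labels do not give the number of animals. Stages are therefore compared without any check over replicate cultures. The cells were a mixture, and fewer cells of a type and less open chromatin per cell cannot be told apart.

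The E60 and E80 sets held 61956 and 60278 peaks, against 19833 peaks at E50 and 30701 at E85. Absence at E50 or E85 therefore cannot be told apart from the smaller size of those sets, and a region outside a set may have been open below its threshold. The promoters of all 14 radial glia genes listed, HES1, SOX2, PAX6 and VIM among them, were called at all 4 stages. The promoters of none of 12 microglia genes, AIF1 and CX3CR1 among them, were called at any stage. The loci of these 12 genes, their bodies with 5000 bp upstream, nonetheless held 8 regions, of which 4 were members (50.0%, 15.7 to 84.3). The only region in each of the P2RY12, PTPRC and TYROBP loci was a member, while the AIF1 and CX3CR1 loci had no region. Whether microglia were present in the cultures was not tested.

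A promoter is the DNA around the start of a gene, and distal regions, among which enhancers are found, can act on genes from a distance. Distal regions tend to be more specific to a cell type or state than promoters, and they carry short motifs that transcription factors bind. AP-1, a pair of FOS and JUN proteins, binds TGANTCA and is a textbook factor of signal-induced enhancers, including those that growth factors and neuronal activity open. Homeodomain factors bind TAATTA, and proneural factors, which drive neuron production in the cortex, bind E-boxes such as CAGCTG.

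The central 300 bases of 4 distal members show these motifs in their setting. They come from a larger set chosen by the motifs its members hold or lack, and then by distance to the start of a gene named by the rules below. Other members of that set, 1 of them nearer to its gene's start than the IQSEC1 stretch, are not shown. Bases were read from the Mmul_10 assembly (rheMac10) on the plus strand. The first 2 members hold AP-1 letters, which are in capitals, and none of the 4 overlaps an annotated exon in the part shown. The IQSEC1 stretch, chr2:144352288-144352587, lies in an intron of the gene for an activator of ARF GTPases. The PECAM1 stretch, chr16:60945339-60945638, lies in an intron of an endothelial adhesion gene.
IQSEC1: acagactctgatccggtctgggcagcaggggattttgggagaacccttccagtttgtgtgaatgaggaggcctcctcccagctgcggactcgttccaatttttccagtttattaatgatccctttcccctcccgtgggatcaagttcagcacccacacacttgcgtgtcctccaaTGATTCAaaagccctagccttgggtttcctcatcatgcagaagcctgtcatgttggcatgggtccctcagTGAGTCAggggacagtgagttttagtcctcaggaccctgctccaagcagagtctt
PECAM1: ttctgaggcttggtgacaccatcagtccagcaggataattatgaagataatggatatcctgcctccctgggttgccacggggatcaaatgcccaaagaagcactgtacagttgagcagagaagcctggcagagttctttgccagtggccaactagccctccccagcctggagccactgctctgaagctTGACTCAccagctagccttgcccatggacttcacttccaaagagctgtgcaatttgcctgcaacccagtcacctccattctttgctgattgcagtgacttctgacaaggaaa

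The other 2 distal stretches lack AP-1 letters and are shown for the letters of the homeodomain motif and of 2 E-boxes, the proneural and the NEUROD form, in capitals. The VGLL4 stretch, chr2:143030009-143030308, lies in an intron of the gene for a cofactor of TEAD factors. The MBP stretch, chr18:2952848-2953147, lies in an intron of the gene for a myelin protein and holds 3 matches to CAGCTG.
VGLL4: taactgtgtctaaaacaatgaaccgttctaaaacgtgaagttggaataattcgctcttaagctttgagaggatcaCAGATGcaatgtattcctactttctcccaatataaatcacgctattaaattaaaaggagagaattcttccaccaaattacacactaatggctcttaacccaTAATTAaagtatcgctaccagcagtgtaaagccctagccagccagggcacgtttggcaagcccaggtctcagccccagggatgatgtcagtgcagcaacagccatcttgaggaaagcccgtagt
MBP: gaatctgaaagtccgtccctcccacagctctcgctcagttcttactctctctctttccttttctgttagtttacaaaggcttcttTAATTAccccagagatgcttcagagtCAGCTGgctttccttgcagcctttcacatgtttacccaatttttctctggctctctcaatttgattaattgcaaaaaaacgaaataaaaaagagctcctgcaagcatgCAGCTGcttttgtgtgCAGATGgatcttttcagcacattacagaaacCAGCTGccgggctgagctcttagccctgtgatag

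A promoter member is shown for contrast. NEUROG1 encodes a proneural factor, and the 300 bases upstream of its start, chr6:132997437-132997736, are printed on the minus strand, toward the gene. Capitals mark the homeodomain letters TAATTA and the POU letters ATGCAAAT, and the stretch holds no AP-1 letters.
NEUROG1: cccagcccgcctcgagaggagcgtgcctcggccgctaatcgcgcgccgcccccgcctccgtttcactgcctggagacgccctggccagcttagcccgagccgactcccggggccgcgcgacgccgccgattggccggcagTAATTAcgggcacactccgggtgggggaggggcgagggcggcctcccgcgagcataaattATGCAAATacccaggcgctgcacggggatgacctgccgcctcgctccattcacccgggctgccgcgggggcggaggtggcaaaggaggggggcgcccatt

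Members were simple in their peaks and spread over the genome. Of the 21251 members, 20647 (97.2%) held exactly 1 E60 and 1 E80 peak, and the most peaks of 1 stage in a member was 5. They made up 35.5% of all E60 regions and 36.6% of all E80 regions. E60 and E80 shared 47343 regions, of which 44.9% were members. Just outside the rule lay 8720 regions called at E85 as well but not at E50, and 347 called at E50 as well but not at E85. Among autosomes the share of regions that were members ran between 24.6% on chromosome 19 and 32.0% on chromosome 18. It was 31.1% on X with 554 members, while Y held 0 members among 34 regions (interval 0 to 10.3). The 95% interval lay below the share of the whole on chromosomes 11, 19, 20 and Y and above it on chromosomes 5, 8 and 18.

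Members lay mostly outside promoters, yet had a larger promoter share than regions called at either stage alone. A region counted as a promoter if any part of it lay near a start, so wider regions qualify more easily. The promoter shares followed the order of the median widths given below and were not weighted for width. Among regions of at most 1000 bp each difference kept its direction and call. Within 1000 bp of a transcription start lay 16.3% of members (exact 95% interval 15.8 to 16.8), against 10.6% of regions called at E60 alone and 5.38% of regions called at E80 alone. Regions called at all 4 stages had 50.5%. The difference was 5.68 percentage points from E60 alone (Newcombe 95% interval 4.93 to 6.42), 10.9 from E80 alone (10.3 to 11.6) and -34.2 from all 4 stages (-35.1 to -33.3). Each direction was the same on 21 of 21 chromosomes, with Y left out here and below. The difference from E60 alone was not seen among regions without a lifted peak, where it was -0.83 points (-1.74 to 0.07), and there the other 2 differences were smaller, at 2.55 and -10.6 points. Lifted peaks are peaks of 4 other sets that the authors merged into the same table and that the labels do not define.

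Most members were intronic or intergenic. Introns held 40.8% of members, against 43.2% of E60-alone, 47.7% of E80-alone and 22.6% of all-stage regions. The intergenic share was 35.9% in members, against 38.9%, 41.6% and 21.3% in the same 3 classes. Among regions without a lifted peak the intron share of members was above that of E60-alone regions, by 3.22 points (1.56 to 4.88). Exons held 7.02% of members and 7.25% of E60-alone regions, a difference of -0.23 points whose interval held 0 (-0.82 to 0.34). Of all members, 12.2% had no transcription start within 100 kb, against 15.7% of E60-alone, 15.7% of E80-alone and 5.89% of all-stage regions. Members were thus nearer to genes than regions of either stage alone, and farther from them than the all-stage regions.

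**Figure D1:**
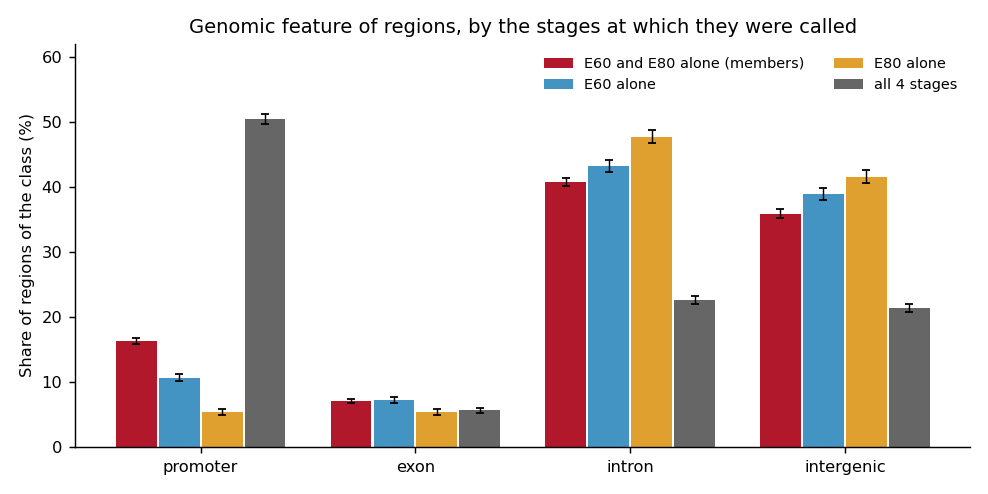
Share of regions (%) that lie in a promoter, exon, intron or between genes, for members (21251 regions), regions called at E60 alone (11835), at E80 alone (9599) and at all 4 stages (17025); bars are shares and error bars are exact 95% intervals. The members' promoter bar, 16.3%, stands above those of E60 alone and E80 alone and below that of all 4 stages, 50.5%.

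Width and base composition placed members between the single-stage and the all-stage regions. The median width of members was 430 bp (quartiles 303 and 660), against 345 bp for E60 alone, 273 bp for E80 alone and 1005 bp for all 4 stages. These are widths of merged regions, which span their stage peaks and any lifted peaks, and centres were set on the same regions. Regions called at more stages merge more peaks, so part of the width order can follow from how the classes were defined. Lifted peaks were in 61.0% of members and in 50.7%, 27.9% and 89.8% of these classes, the same order as the widths. How much of the width order came from lifted peaks or from the number of stages merged was not tested. The narrowest member was 147 bp, 2050 members (9.65%) were wider than 1000 bp and 6 were wider than 5000 bp. The median GC content within 150 bp of the centre was 50.8% in members, 49.5% in E60-alone, 47.5% in E80-alone and 60.5% in all-stage regions.

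CpG-rich centres, with a CpG ratio above 0.6 and GC content above 50%, are typical of promoters that are open in many cell types. They made up 62.9% of the members' promoters (interval 61.3 to 64.5), against 50.5% for E60 alone, 20.7% for E80 alone and 83.5% for all 4 stages. In distal members the share was 7.42%, against 6.43%, 1.51% and 10.998% in the same classes. The E80-alone regions were the poorest in CpG both in promoters and outside them.

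The AP-1 share of members differed from that of each of the 3 classes they were compared with, though not at every width. Within 150 bp of the centre, 35.5% of members held TGANTCA (interval 34.9 to 36.2), against 16.1% of E60-alone regions, 53.0% of E80-alone regions and 13.997% of all-stage regions. Over all regions with a stage peak the share was 26.6%. Members thus lay between the E60-alone and the E80-alone regions. Comparison shares were weighted to the members' mix of promoters, distal regions and GC content, and intervals were set at 99.95% to allow for 93 motif comparisons. On that scale the difference was 20.7 points from E60 alone (19.2 to 22.2), -9.69 from E80 alone (-11.9 to -7.50) and 12.7 from all 4 stages (10.9 to 14.5). The difference from E80 alone was smaller, -4.87 points, with width among the strata, and -3.25 points among regions without a lifted peak. The unweighted direction was the same on 21 of 21 chromosomes in each of the 3 comparisons.

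The differences from E60 alone and from all 4 stages were larger in distal regions than in promoters. Of distal members, 40.1% held AP-1, against 17.04% for E60 alone, 54.0% for E80 alone and 24.5% for all 4 stages. Among 6405 distal regions called at E60, E80 and E85, which add 1 stage to the members' rule, the share was 25.5%. In promoters AP-1 was found in 12.3% of members, against 7.94%, 36.0% and 3.69% in the same 3 classes. Within promoters the weighted difference from E80 alone was -5.86 points, and its interval held 0 (-12.3 to 0.61). By chromosome, the distal AP-1 share of members ran between 25.1% and 45.5%, with a median of 40.5%. The E60-alone range, 11.2% to 20.99%, did not overlap it, while the E80-alone range, 43.3% to 59.0%, and the all-stage range, 12.3% to 32.6%, did.

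AP-1 letters sat at the middle of the members. Within 50 bp of the centre, 23.4% of distal members held a match, against 3.05% and 3.02% in windows of the same size in the left and right flanks. The ratio of centre to flank was 7.69 in members, 2.87 in E60-alone, 10.2 in E80-alone and 3.46 in all-stage regions. The flanks differed little between the classes, at 2.77% to 3.86%. The strict form TGAGTCA was in 32.7% of distal members, against 11.6%, 43.8% and 19.7% in E60-alone, E80-alone and all-stage regions. Exactly 2 matches were found in 7.50% of distal members and 3 or more in 0.93%, against 1.62% and 0.09% of E60-alone regions.

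**Figure D2:**
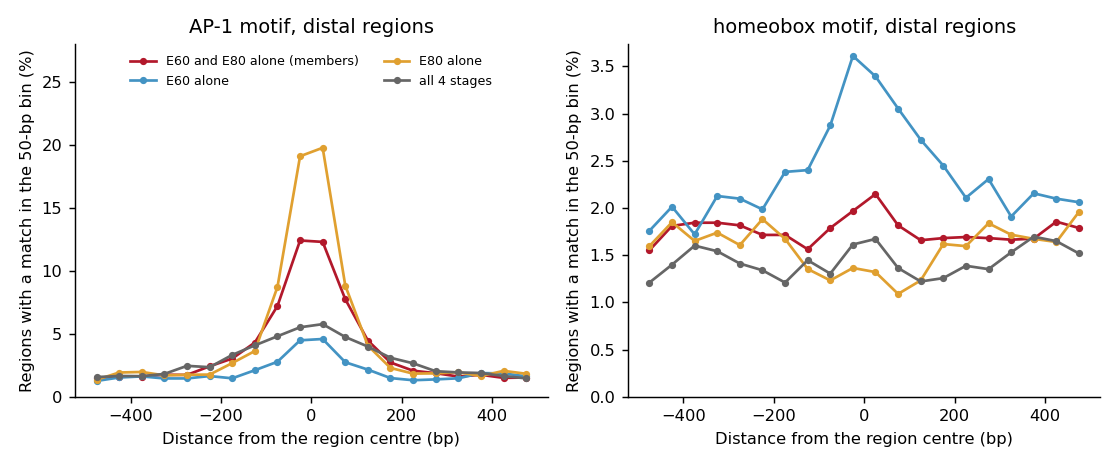
Share of distal regions (%) with a match to the AP-1 motif (left) or the homeobox motif (right) in each 50-bp bin, by distance from the region centre in bp, for members, E60-alone, E80-alone and all-stage regions; each point is 1 bin. The AP-1 share of members is 12.4% just left of the centre and 1.50% in the leftmost bin, while E60-alone regions reach 4.48% and E80-alone regions 19.1% in the same central bin.

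The AP-1 share depended on width. It was highest, 52.8%, in distal members of over 300 to 400 bp, where E60-alone regions had 19.1%, E80-alone regions 55.0% and all-stage regions 27.5%. Members of over 200 to 300 bp had 41.2%, against 58.4% for E80 alone. In regions of over 500 to 700 bp, members and E80-alone regions had 35.8% each, and members had more than E60-alone regions, at 11.2%. Members wider than 1000 bp had 13.8%, and their interval (11.7 to 16.2) overlapped that of all-stage regions, at 16.6%. At over 700 to 1000 bp members had 25.3% and all-stage regions 26.1%, and these intervals overlapped too. The intervals of members and E60-alone regions overlapped in the narrowest class alone, up to 200 bp (26.9% against 20.7%). Those of members and E80-alone regions overlapped at over 300 to 400 bp, at over 500 to 700 bp and above 1000 bp, and members were lower in the other width classes.

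**Figure D3:**
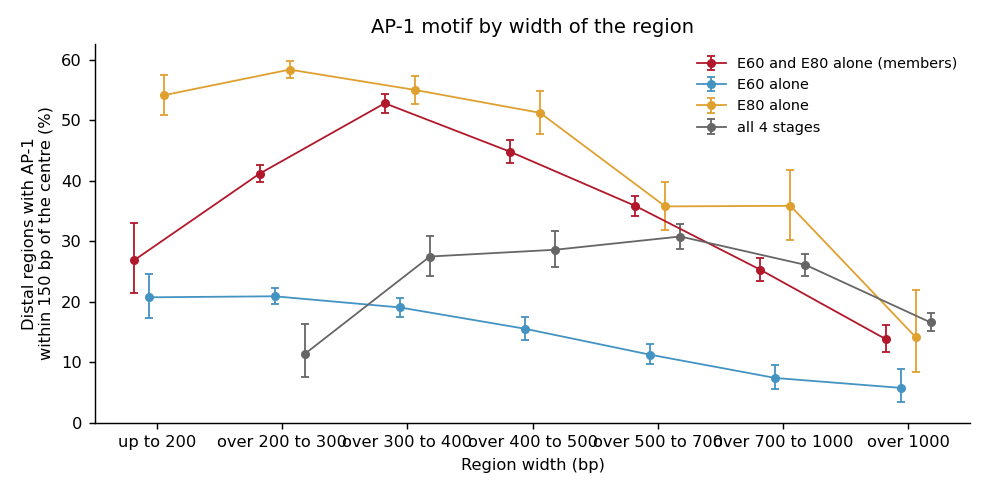
Share of distal regions (%) with AP-1 within 150 bp of the centre, by region width in bp, for members, E60-alone, E80-alone and all-stage regions; points are shares, bars are exact 95% intervals, and groups under 50 regions are not drawn. Members peak at 52.8% in the class of over 300 to 400 bp, near the E80-alone share of 55.0% there.

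Of 31 motifs, 3 (9.68% of them) had higher shares in members than in E60-alone regions and 8 (25.8%) had lower ones. Against E80-alone regions, 4 (12.9%) were higher and 3 (9.68%) lower. The same 3 motifs, AP-1, TEAD and the nuclear receptor motif, were higher than in E60-alone and lower than in E80-alone regions. TEAD factors, which bind ACATTCC, are the DNA-binding partners of the Hippo cofactors YAP and TAZ. Their motif was in 5.13% of members, against 4.02% for E60 alone and 9.95% for E80 alone, and in 5.42% of all regions. The weighted differences were 1.31 points (0.51 to 2.12) and -3.29 points (-4.59 to -1.9996). The nuclear receptor motif AGGTCA, bound by NR2F1 among others, was in 15.3% of members, against 11.5% and 21.5%, and in 14.5% of all regions. Its weighted differences were 4.04 points (2.71 to 5.37) and -4.49 points (-6.39 to -2.59). In promoters alone the TEAD differences were 0.86 and -0.25 points and the nuclear receptor differences 2.48 and -2.47 points, and all 4 intervals held 0.

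Another 4 motifs ran the other way, lower in members than in E60-alone regions and higher than in E80-alone regions. The homeobox motif TAATTA, bound by LHX, EMX and DLX factors among others, was in 8.92% of members, against 14.9% for E60 alone and 7.04% for E80 alone, and in 8.30% of all regions. Its weighted differences were -4.51 points (-5.71 to -3.30) and 3.59 points (2.42 to 4.76). In distal members it showed only a slight rise at the centre, with 4.05% within 50 bp against 3.30% and 3.57% in the flanks, while in E60-alone regions the centre had 6.77%. The proneural E-box CAGCTG was in 24.3% of members, against 31.6% and 20.7%, and in 24.4% of all regions. Its weighted differences were -7.29 points (-9.10 to -5.48) and 2.70 points (0.45 to 4.95). In promoters alone the homeobox differences were -1.30 and 1.40 points and the E-box difference from E60 alone was -4.11 points, and these intervals held 0. The E-box difference from E80 alone ran between 1.41 and 3.54 points, and its interval held 0 in 6 of 10 alternatives.

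The SOX motif ACAATG and the POU motif ATGCAAAT completed this group. SOX letters were in 16.2% of members, against 19.5% for E60 alone and 16.3% for E80 alone, and in 15.1% of all regions. Its weighted differences were -1.98 points (-3.44 to -0.52) and 2.70 points (1.05 to 4.35), and the difference from E80 alone came with the weighting, since the unweighted shares were nearly equal. POU letters were in 2.69% of members, against 4.71% and 2.07%, and in 2.80% of all regions, with weighted differences of -1.66 points (-2.41 to -0.91) and 1.06 points (0.20 to 1.93). Against E60 alone, the SOX interval held 0 in promoters alone (-1.41 points) and among regions without a lifted peak (-2.15 points), and the POU interval held 0 in promoters alone (-1.05 points). Against E80 alone, the POU interval held 0 in 4 of 10 alternatives, with values of 0.38 to 1.04 points, and the SOX values are in the closing section.

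The other 4 motifs with a difference were lower in members than in E60-alone regions, with no call against E80-alone regions. NFI factors, which act in gliogenesis, bind TTGGCA, and this was in 19.3% of members and 25.7% of E60-alone regions, a weighted difference of -5.38 points (-7.02 to -3.75). The NEUROD E-box CAGATG was in 21.8% of members and 25.5% of E60-alone regions (-2.84 points, -4.51 to -1.16). The MEIS motif TGACAG was in 18.97% and 21.98% (-2.35 points, -3.95 to -0.75), and the ZEB and SNAI E-box CAGGTG was in 16.2% and 19.2% (-3.69 points, -5.26 to -2.11). The other 20 motifs had no call against either class. They were in 0.08% to 7.75% of members and 0.08% to 9.67% of all regions. Among them was CTCF, the insulator factor, whose motif was in 0.47% of members and 0.33% of E60-alone regions. Against all-stage regions, 4 of the 31 motifs were higher (12.9%) and 8 lower (25.8%). The total of 12 was 3 with width among the strata.

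**Figure D4:**
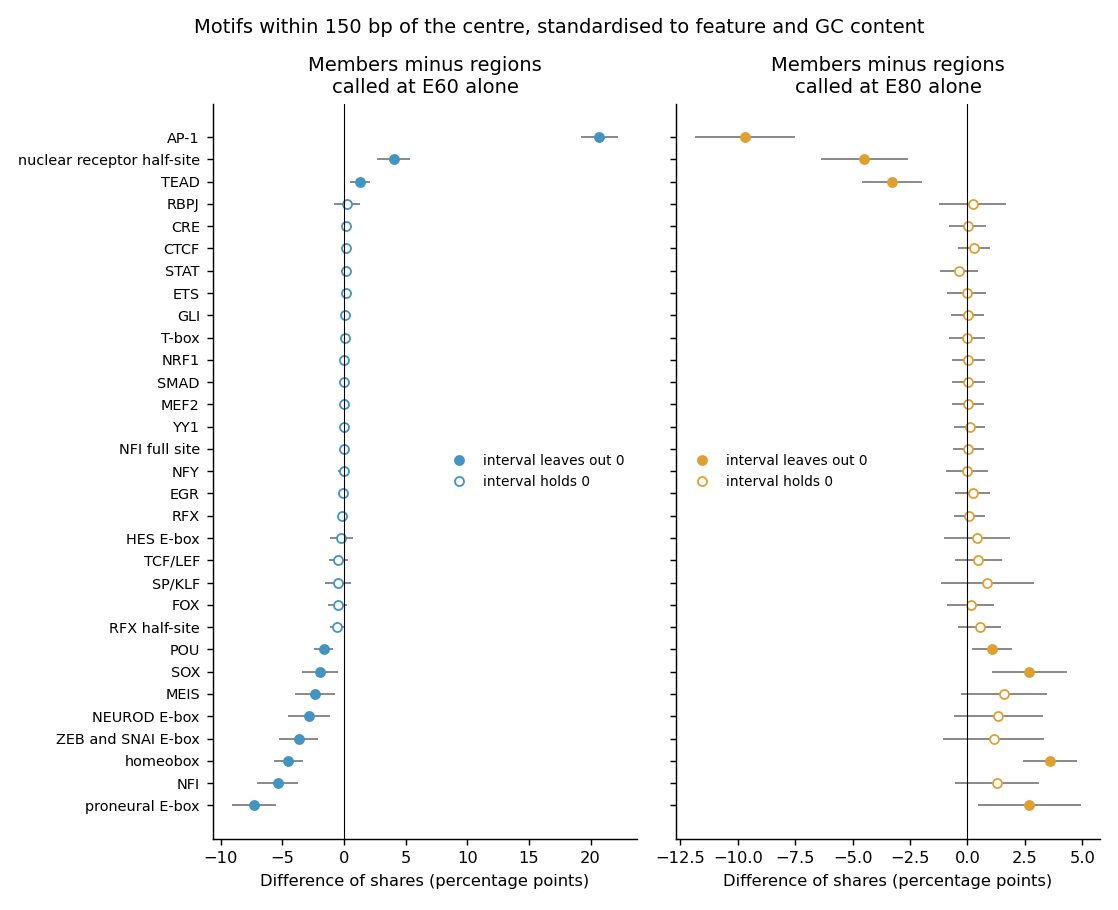
Difference in the share of regions with each of 31 motifs, in percentage points, between members and E60-alone regions (left) and between members and E80-alone regions (right), weighted to the members' feature and GC content; lines are 99.95% intervals and filled points have intervals that leave out 0. AP-1 stands at 20.7 on the left and -9.69 on the right, and homeobox at -4.51 and 3.59.

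Distal members with AP-1 and those without differed in other ways. The 7126 distal members with AP-1 had a median width of 371 bp and a GC content of 47.2%, against 431 bp and 51.5% in the 10656 without. Lifted peaks were present in 43.5% of those with AP-1 and 65.7% of those without. Weighted to the same widths, the difference was -17.2 points (-18.7 to -15.8). It had the same sign and was smaller in E60-alone regions (-10.99), E80-alone regions (-7.62) and all-stage regions (-4.13), and the members' interval did not overlap theirs. Members with AP-1 also held fewer proneural E-boxes, 22.5% against 26.6%, a difference of -4.07 points (-5.34 to -2.78). Motif differences here are not weighted for GC content or width. The NEUROD E-box, SOX and nuclear receptor motifs went the other way, at 1.58, 2.83 and 2.10 points. The ZEB and SNAI E-box and the shorter RFX form were also lower with AP-1, at -3.53 and -0.64 points. TEAD letters were in 5.74% with AP-1 and 5.42% without, and the interval of that difference held 0 (-0.37 to 1.02).

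Lifted peaks were present in 61.0% of members (interval 60.4 to 61.7), against 50.7% for E60 alone, 27.9% for E80 alone and 89.8% for all 4 stages. Peaks of all 4 lifted sets were in 15.3% of members, against 8.26%, 3.07% and 68.5%. The difference from E60 alone, 10.4 points unweighted, was 1.27 points (0.26 to 2.28) once width and feature were weighted alike. It was 10.9 points from E80 alone (9.51 to 12.3) and -12.2 from all 4 stages (-14.0 to -10.4) on the same scale. Among distal regions of over 300 to 400 bp members were below E60-alone regions, at 43.3% against 47.0%, and among those of over 200 to 300 bp they were above, at 41.2% against 28.7%.

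At the promoters of protein-coding genes, 14132 genes had a region of any stage. For 1921 of them (13.6%) every such region was a member, so the promoter was in the E60 and E80 sets alone. A further 9027 had promoters called at all 4 stages, and 1879 at E60, E80 and E85. In the gene lists, 62 genes had promoters that were members alone, in 73 regions between 248 and 3866 bp wide. Of these regions 57 were CpG-rich and 70 held a lifted peak. AP-1 letters were in 4 of the 73, next to 12.3% of all promoter members and 40.1% of distal members.

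Proneural and progenitor factors were among them. In the list of intermediate progenitors, the cells that divide to give cortical neurons, 5 of 15 called promoters were members alone. They were those of NEUROG1 and NEUROD1, proneural factors, INSM1, a zinc finger factor that promotes basal progenitors, PPP1R17, a phosphatase inhibitor, and DLL3, a Notch ligand family member. All 3 regions in the NEUROD1 locus were members, as were 3 of 4 in the INSM1 locus. EOMES, the marker factor of these progenitors, had its promoter called at E60, E80 and E85. NEUROG2 had a promoter called at E60 and E80, with 1 member and 1 E60-alone region in its locus.

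Synaptic genes had the largest number. In the list of synapse and ion channel genes, 9 of 18 called promoters were members alone. Among them are those of the calcium channel subunits CACNA1C and CACNA1A, the potassium channels KCNMA1 and KCNQ3, the AMPA receptor subunit GRIA1, the GABA receptor subunit GABRA2, and the scaffold proteins SHANK3 and DLGAP1. The list's loci held 126 members among 326 regions, 38.7% (33.3 to 44.2). KCNMA1 had 17 members of 46 regions and KCNQ3 had 16 of 23, while the scaffold gene DLG2 had 14 of 42, with its promoter called at all 4 stages.

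Neuron class genes followed. In the interneuron list 5 of 16 called promoters were members alone: GAD1 and GAD2, which encode the enzymes that make GABA, LHX6 and LHX8, homeodomain factors of the ventral forebrain, and ADARB2, a marker of caudally derived interneurons. The GAD1 promoter region was the widest of all listed ones, 3866 bp, and the GAD1 locus held 7 members and 5 E60-alone regions. The upper-layer list had 3 of 11, BHLHE22, MEF2C and PLXND1, and 6 of the 7 MEF2C regions were members. The deep-layer list had 2 of 10, TBR1, a T-box factor of corticothalamic neurons, and ZFPM2. The pan-neuronal list had 3 of 15, STMN2, RBFOX3 and CELF4. In the list of Cajal-Retzius cells and the hem 3 of 8 were members alone: RELN, the secreted guide of cortical layering, EBF3 and BMP4.

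Guidance and adhesion genes were also among them. In axon guidance 6 of 22 called promoters were members alone: the ligands SLIT3, NTN1 and SEMA5A and the receptors DCC, UNC5C and EPHA3. In adhesion and matrix there were 5 of 22: the integrin ITGA1, the laminins LAMA2 and LAMB1, and the cadherins CDH4 and CDH13. The ROBO1 locus, which encodes a receptor of SLIT proteins, held 13 members among 19 regions, PLXNA2 held 11 of 28 and NRP2 held 10 of 25. COL4A1, a basement membrane collagen, had 8 of 15 and CDH11 had 7 of 11.

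In the signalling lists the counts were closer to the 13.6% of all genes. The Notch list had 3 of 16, NOTCH3, DLL3 and JAG2, and the WNT list had 3 of 20, LRP5, LGR5 and NKD1. The list of receptors and targets of FGF, EGF and BDNF, factors present in the medium, had 2 of 18, FGFR3 and EGFR. The EGFR locus held 7 members among 9 regions. Hippo had 2 of 13, TEAD3 and TEAD4, TGF-beta and BMP had 2 of 20, BMPR1B and SMAD9, and hedgehog had 1 of 11, HHIP. In the AP-1 and immediate early list no promoter of 15 was a member alone, and 14 were called at all 4 stages.

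Glial, vascular and common genes ended the lists. The endothelial list had 3 of 5 called promoters, KDR, CLDN5 and ERG, and the mural and mesenchyme list had 2 of 6, TBX18 and TWIST1. The locus of endothelial CDH5 had no region of any stage. The oligodendrocyte list had 2 of 7, CSPG4 and GPR17, and astrocytes had 1 of 11, SLC1A2, a glutamate transporter. No promoter was a member alone among 14 radial glia, 10 outer radial glia and 16 housekeeping genes, and 1 of 16 was in the cell cycle list, E2F1. The lists are small, and the counts are a description without a test.

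Over whole loci, a gene's body with 5000 bp upstream, the shares varied less. Of 25 lists, 15 had a member share above the 29.4% of all regions, but the 95% interval lay above it in 4 and below it in none. These intervals make no allowance for the 25 lists or for regions that share a locus, and are a description. The 4 were the oligodendrocyte list with 20 of 40 regions (50.0%, 33.8 to 66.2), Hippo with 37 of 89 (41.6%), upper-layer neurons with 37 of 94 (39.4%), and the synapse list. The lowest shares were in cell cycle, 5 of 35 (14.3%), housekeeping, 6 of 30 (20.0%), outer radial glia, 15 of 72 (20.8%), and radial glia, 22 of 104 (21.2%). Members made up 20.7% of all promoter regions and 32.0% of all distal regions, and list shares were not weighted for that mix. All 16 housekeeping and all 16 cell cycle genes had a called promoter. Among distal regions alone the housekeeping share was 55.6%, and that of the AP-1 and immediate early list was 50.0%, against 26.7% over all its regions. These distal shares rest on few regions, since the lists held 30 and 45 regions of any kind. Within the oligodendrocyte list MBP held 6 of 10, CSPG4 4 of 8 and PDGFRA 2 of 5. Within Hippo TEAD1 held 11 of 24, VGLL4 6 of 14 and AMOTL1 4 of 9. Among radial glia genes SOX2 held 4 members of 12 regions, NOTCH1 3 of 14 and LHX2 3 of 6.

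**Figure D5:**
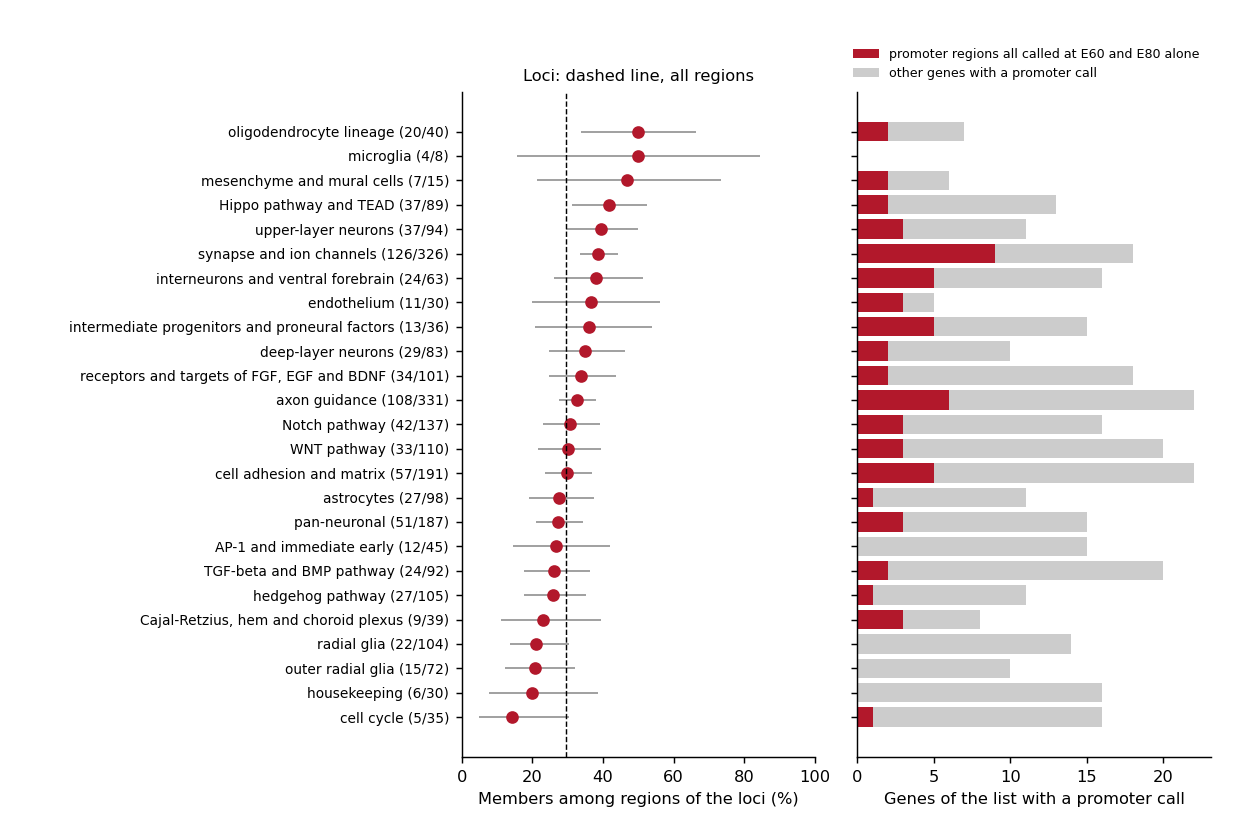
Left, share (%) of the regions in each list's loci that were members, with exact 95% intervals, members and regions in brackets, and the 29.4% of all regions as a dashed line; right, number of genes with a called promoter, in red those whose promoter regions were all members. Synapse and ion channels has the longest red bar, 9 of 18, and radial glia has none of 14.

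Of 16325 protein-coding loci with a region, 7166 (43.9%) held a member, and 87 held at least 10. AUTS2, a gene of neuron differentiation, held the most, 21 of 53 regions, and 9 of the 21 had AP-1. SH3RF3 had 20 of 42, OPCML, an adhesion protein gene, 19 of 50, and MSI2, an RNA-binding protein of progenitors, 18 of 65. LDLRAD4, an inhibitor of TGF-beta signalling, had 16 of 25. GSE1, KAZN, IQSEC1, TENM4 and MAML3 had 15 each, of 64, 52, 43, 37 and 34 regions. Long genes with many regions lead such a count, and among these loci the member share was between 23.4% in GSE1 and 69.6% in KCNQ3.

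Ranked by share among the 902 loci with at least 10 regions, where the median was 30.8% (quartiles 23.1% and 40.0%), GFRA1 came first. This GDNF receptor gene had 9 members among 12 regions, 6 of them with AP-1, and its promoter was a member alone. PMEPA1, an inhibitor of TGF-beta signalling, had 7 of 10 and PARVA, a focal adhesion gene, 8 of 12. PDE10A, a phosphodiesterase of striatal neurons, had 11 of 17, and DNM3, MCF2L2 and AKAP13 had 9 of 14 each. At the other end 9 such loci held no member, among them CLSTN2, with 15 regions, and SHISA9, with 13.

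Some members stood in runs, with no other region between them. Since 29.4% of all regions were members, such runs also arise in a random order. Whether the members' runs differed from that was not tested. Of the members, 9936 stood alone and 6140 stood in 3070 pairs. The longest run had 12 members over 221716 bp on chromosome 6 (168805592 to 169027307) around FGF18, and 2 of the 12 had AP-1. PDE10A held a run of 10 and NXN a run of 9, of which 5 had AP-1 and 1 a lifted peak. RIN2 held a run of 8, 5 of them with AP-1. The runs thus differed in their make-up.

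The widest members were mainly labelled promoters, a label that a wide region gets more easily, since any part within 1000 bp of a start suffices. The widest of all, 100179 bp on chromosome 13 (14826365 to 14926543), held only 2 E60 and 2 E80 peaks together with peaks of all 4 lifted sets. A member of 24741 bp on chromosome 1 held 1 peak of each stage and peaks of 3 lifted sets. How much of either width came from stage peaks and how much from lifted peaks cannot be told apart. Next were the promoter region of DPH1, 7809 bp, an intronic region of LRP5, 7346 bp, and the promoter region of ARC, an activity-regulated gene, 4894 bp with 4 E60 and 3 E80 peaks. The promoter regions of ZNF462 (4836 bp), MN1 (4476 bp) and PHF12 (4287 bp) followed.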

How the data were processed

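ATAC-seq followed Omni-ATAC, per the labels, with a pair of technical libraries per culture. Bowtie2 2.5.1, cutadapt 4.4 and SAMtools 1.15 are named with rheMac10 in the submitters' processing notes. How peaks were called, at which threshold and over which libraries is not given in the sources used here. A single file with 112696 merged regions, their positions and their peak names was deposited; stages were read from the names, and 40338 regions with lifted peaks alone were left out. The deposited table has 8 columns of values without names, which were not used, so depth per library was not used here. Of the peak numbers, 12.6% at E60 and 16.4% at E80 were missing from the table, against 34.8% at E50 and 26.5% at E85. Coordinates are 1-based.

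Features came from RefSeq gene models (release 103): promoter (any part within 1000 bp of a start), exon, intron, intergenic. Shares of single classes have exact Clopper-Pearson intervals, differences Newcombe intervals. Motif shares were standardised to strata of promoter or distal and GC bins of 5 points; members in strata with under 5 comparison regions were left out. A difference was called where its interval left out 0. Intervals cover counting error only, and regions are not independent replicates. Of simulated motif differences of 3 points, the method called 30 of 30 against 11835 E60-alone and 25 of 30 against 9599 E80-alone regions, and 0 of 30 with no difference. Regions were drawn independently, with shares set by the same strata, so dependence between regions was not checked. Smaller differences than 3 points, which some motifs called here had, were not simulated.

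Motifs were searched on both strands. Those without a call were CRE (TGACGTCA), HES E-box (CACGTG), NFI full site, RFX and its shorter form (GTTGCCAT), CTCF, NRF1, ETS (CCGGAAGT), SP/KLF (GGGCGGGG), NFY (CCAATCAG), YY1, STAT (TTCCNGGAA), MEF2, TCF/LEF (CTTTGAT), FOX (TGTTTAC), T-box (AGGTGTGA), GLI (TGGGTGGTC), RBPJ (GTGGGAA), SMAD (GTCTAGAC) and EGR (GCGTGGGCG). A match to RFX is also a match to its shorter form, and no other motif always holds another. With some free letters, the NFI full site can hold TTGGCA and the CTCF motif can hold CAGGTG.

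The members, gene lists and motifs were chosen with earlier results of these data known. Named are the 12 loci with most members, the 10 with the highest share among those with at least 10 regions, up to 3 genes per list, listed genes whose promoter was a member alone, the 10 widest autosomal members and the 10 longest runs; EOMES, NEUROG2, CDH5, CLSTN2, SHISA9 and the marker genes of the opening were named outside this rule. Some items that the rule names are not reported here. Repeat content was planned but not computed, since the reference has no masking. Python 3.11.15, pandas 2.3.3, SciPy 1.17.1, matplotlib 3.10.9 and SAMtools 1.23.1 were used. Alternatives were other promoter distances, motif windows, gene spans, widths and feature classes, autosomes, regions without lifted peaks, and rules that ignore E50 or E85.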

Additional observations from a re-analysis of the deposited data

How the results depend on the processing

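No paired analysis was possible because no result comes from a test over samples and the peak names carry no library, so no replicate could be left out. AP-1 kept its direction and its call in 32 of 33 values: it ran between 6.03 and 29.6 points against E60 alone, between -17.5 and -3.25 against E80 alone and between 7.16 and 21.5 against all 4 stages. The exception was in promoters alone against E80 alone, -5.86 points, where fewer regions were compared. The promoter share against E60 alone turned to -0.83 points among regions without a lifted peak, and the intron share turned to 3.22 points there; the cause was not tested. The 6 differences in CpG-rich centres and the 12 in lifted peaks kept their direction and call. Ignoring E85 gave 29971 members, and 3664 genes with promoters in such regions alone. Ignoring E50 gave 21598 members.

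The number of motifs called against E60 alone, 11, was 2 in promoters alone. Against E80 alone, 7, it was 0 in promoters alone and 14 without standardisation. Against all 4 stages, 12, it was 7 in the smaller window, 19 without standardisation, 6 in promoters alone, 3 among regions without a lifted peak and 3 with width added to the strata. Without standardisation the differences from E80 alone were -0.041 points for SOX, -1.12 for NFI and -0.61 for the NEUROD E-box, all below 0. SOX was -0.087 in promoters alone and the ZEB and SNAI E-box -1.49 in the window of 250 bp, also below 0. The proneural E-box, SOX and POU differences from E80 alone had intervals that held 0 with a window of 75 bp. The alternatives with E85 or E50 ignored for motifs and promoters, with width as a stratum and with TGAGTCA alone were chosen after seeing the data. Depth was not used, and set size limits what absence at E50 and E85 can show.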
